A study of Mus musculus with 778 samples.

Results

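The genes described here carry glucose to pyruvate and pyruvate to lactate or into mitochondria: *Hk1*, *Pfkl*, *Pfkm*, *Pfkp*, *Aldoa*, *Pgk1*, *Pkm*, *Ldha*, *Ldhb* and *Pdha1*. They are a list of names, 10 of the 23201 genes in the count table, and all 10 were found in it. Single mouse oocytes were picked by hand from the ovaries of wild-type ICR mice after washing away somatic cells, and their poly(A) RNA was counted with unique molecular identifiers (UMIs), random tags by which amplified copies of 1 molecule are counted once. The 5 stages were set by oocyte diameter. Non-growing oocytes (NGO, 46 cells) measured under 20 μm and came from mice aged 3 to 4 days. Growing oocytes of 30 to 45 μm (GO1, 51 cells), 50 to 55 μm (GO2, 26 cells) and 60 to 65 μm (GO3, 44 cells) and fully-grown oocytes over 70 μm (FGO, 56 cells) came from mice aged 3 to 4 weeks, so growth and mouse age cannot be told apart in any comparison with NGO. No group carried a transgene or received a treatment.

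Glycolysis splits glucose into pyruvate, and hexokinase, phosphofructokinase and pyruvate kinase catalyse its controlled, practically irreversible steps. Lactate dehydrogenase, built of A subunits (*Ldha*) and B subunits (*Ldhb*), interconverts pyruvate and lactate, and the pyruvate dehydrogenase complex turns pyruvate into acetyl-CoA for the tricarboxylic acid cycle. The mouse oocyte is known for poor use of glucose, for its reliance on pyruvate that follicle cells provide, and for a large store of lactate dehydrogenase of the B type.

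The 223 cells came from 4 libraries that the cell names do not show, so a stage counts as 1 sample without replicates, and no test between stages was possible. All cells of a stage were added up, and a gene's level is its UMIs per 1000000 UMIs of that sum (CPM). A gene is called higher or lower where the larger of its levels was 10 CPM or more and at least 2-fold the smaller. Ranges in parentheses are exact 95% intervals that cover counting error only. Each UMI stands for 1 molecule whatever its length, so CPM values were compared between genes without division by gene length. Stage totals ran from 24976634 to 64311908 UMIs. Single cells held 22279 to 3898137 UMIs, and the 10 deepest cells carried 80.4% of the GO1 total and 73.2% of the GO2 total. In the median GO1 cell 1 UMI equalled 9.08 CPM, against 1.03 to 1.85 CPM in the median cells of the other stages, so a value of 0 in a GO1 cell says little about a gene of low level. The 10 oocyte markers all had UMIs in every stage, with summed levels between 13504 CPM in GO1 and 26004 CPM in NGO. The 12 granulosa markers summed to 16.3 CPM in NGO and were highest in GO1, at 45.4 CPM, while the 8 stroma and theca markers were highest in NGO, at 13.9 CPM, and lowest in GO1, at 2.65 CPM. Of 6 blood and vessel markers the 3 haemoglobin genes were at 0 in every stage, and the sum, which was *Pecam1* alone in each stage but GO3, was 4.604 CPM in NGO, 37.6 in GO1 and 26.7 in FGO, with the highest value, 48.8 CPM, in GO3.

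Between NGO and GO1 most of these genes were lower, and 1 was higher. Of the 8 that reached 10 CPM in either stage, *Pfkl*, *Pfkm*, *Aldoa*, *Pgk1* and *Pkm* were lower in GO1, which makes 5, where 25.7% of all 8527 genes at that level were lower. *Pfkp* alone was higher, where 20.6% of all genes were. *Ldhb* and *Pdha1* stayed within 2-fold, and *Hk1* and *Ldha* were under 10 CPM in every stage. The median log2 ratio of the 8 was -1.16, against -0.15 over all genes at that level. CPM is a share of the UMIs counted, and the paper reports, from spike-ins, a higher relative mRNA abundance in GO1 than in NGO. A lower CPM in GO1 therefore need not mean fewer molecules per oocyte, which were not estimated here.

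From GO1 on, no step between neighbouring stage sums called a member. From GO1 to GO2 none of the 6 members that reached 10 CPM was called, where 0.109% of all genes were higher and 3.03% lower. This step depends on the deep cells: *Pkm* was called higher in GO2 as a mean over cells, after thinning each cell to 20000 UMIs, without the 10 deepest cells of each stage and in cells of 200000 to 1000000 UMIs, and *Aldoa* without the 10 deepest cells. More of all genes were called higher there too. In the sums 8 of 7356 were higher, against 306 of 7356 as a mean over cells and 614 of 7378 after thinning. Without the 10 deepest cells 682 of 7234 were higher, and in cells of 200000 to 1000000 UMIs 320 of 7416. From GO2 to GO3 none of 7 was called, where 3.34% of all genes were higher and 1.01% lower. From GO3 to FGO none of 7 was called, where 2.41% of all genes were higher and 3.54% lower, and the median log2 ratio of the 7 was 0.33, against 0.06 over all genes. Over the whole range from NGO to FGO, *Pfkp* was higher and *Pfkm* lower among 8 members, where 11.3% of all genes were higher and 16% lower. With TMM scaling 56.8% rather than 41.4% of the called genes of the whole table were higher in FGO. The members' calls depend on the weight of deep cells too: *Pfkp* was not called higher as a mean over cells, after thinning, with 26 cells per stage, without the 10 deepest cells or in cells of 200000 to 1000000 UMIs, and *Aldoa* was called lower in each of these settings, *Pgk1* in all but cells of 200000 to 1000000 UMIs and *Pkm* in all but 26 cells per stage, while *Pfkm* was not called after thinning. In the sums *Aldoa* and *Pgk1* ended just inside the limit, 1.99-fold lower (1.93 to 2.05) and 1.999-fold lower (1.89 to 2.12) in FGO than in NGO.

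**Figure D1:**
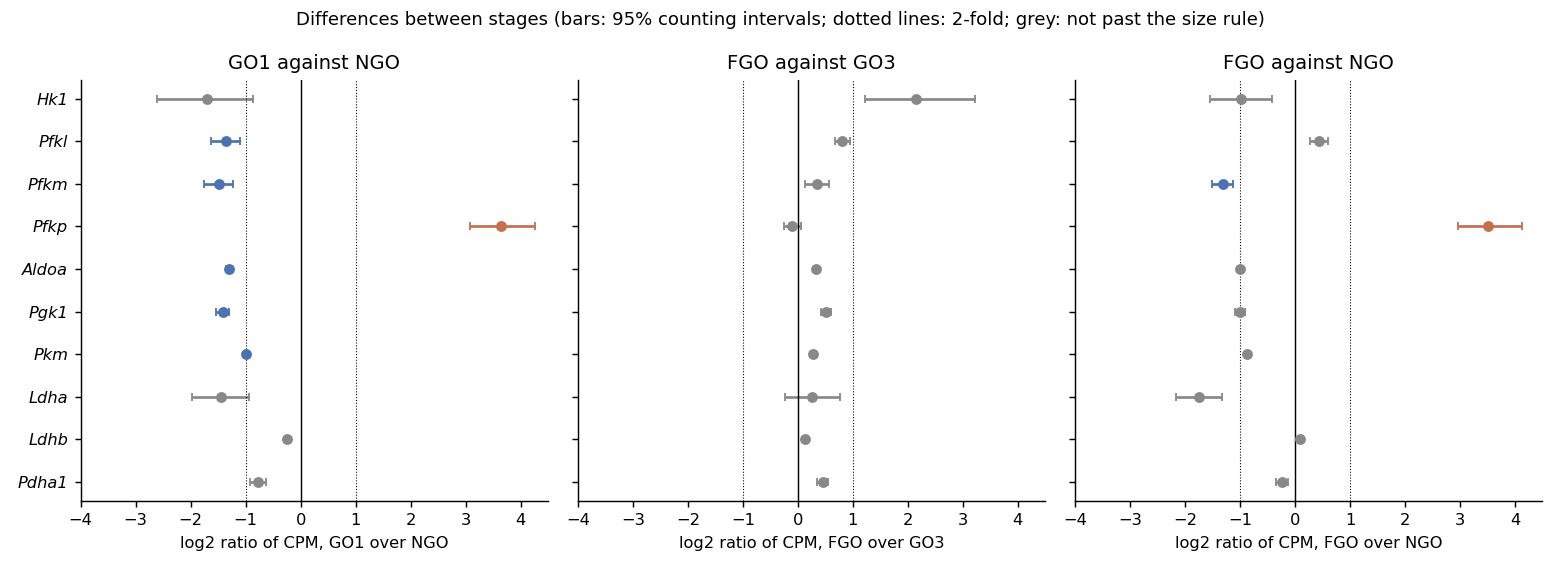
Log2 ratio of CPM of each of the 10 genes between stages, GO1 over NGO (left), FGO over GO3 (middle) and FGO over NGO (right), with 95% counting intervals as bars and 2-fold as dotted lines. Blue points are called lower, orange points higher and grey points neither: 5 blue and 1 orange in the left panel, none in the middle panel, and 1 of each in the right panel.

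Hexokinase puts the first phosphate on glucose. *Hk1* (chromosome 10, 61731603 to 61842656, minus strand, positions here on the mm9 build, NCBIM37) encodes the form found in most tissues and was scarce in every stage, at 1.94 CPM in NGO, then 0.598 in GO1 and 0.0801 in GO2, and 0.221 in GO3 and 0.980 in FGO. It was at 0 in 29 of 46 NGO cells, 47 of 51 GO1 cells, 24 of 26 GO2 cells, 37 of 44 GO3 cells and 35 of 56 FGO cells. The GO2 level rests on 2 UMIs, under the limit of 3 UMIs that a count of 0 allows. *Hk2*, the form linked to growing and insulin-sensitive tissue, stood at 1.19 CPM in NGO, then 3.96 in GO1 and 3.64 in GO2, and 4.09 in GO3 and 4.62 in FGO. *Hk2* made up 19.2% (13.4 to 26.3) of the UMIs of the 5 hexokinase genes in NGO and 80.3% (72.5 to 86.7) in GO1, and *Hk1* 31.4% (24.2 to 39.3) and 12.1% (7.09 to 18.9). The largest share in NGO was that of *Hkdc1*, a hexokinase-related gene, with 45.5% (37.5 to 53.7) from 2.82 CPM, and it had 0 UMIs in GO1 and GO2. The hexokinase gene with the most UMIs thus differed between these stages, *Hkdc1* in NGO and *Hk2* in GO1, although the intervals of *Hkdc1* and *Hk1* in NGO overlap. All 5 genes together gave only 3.76 to 6.19 CPM. *Hk3* had 1 UMI in NGO and 0 in the 4 other stages.

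**Figure D2:**
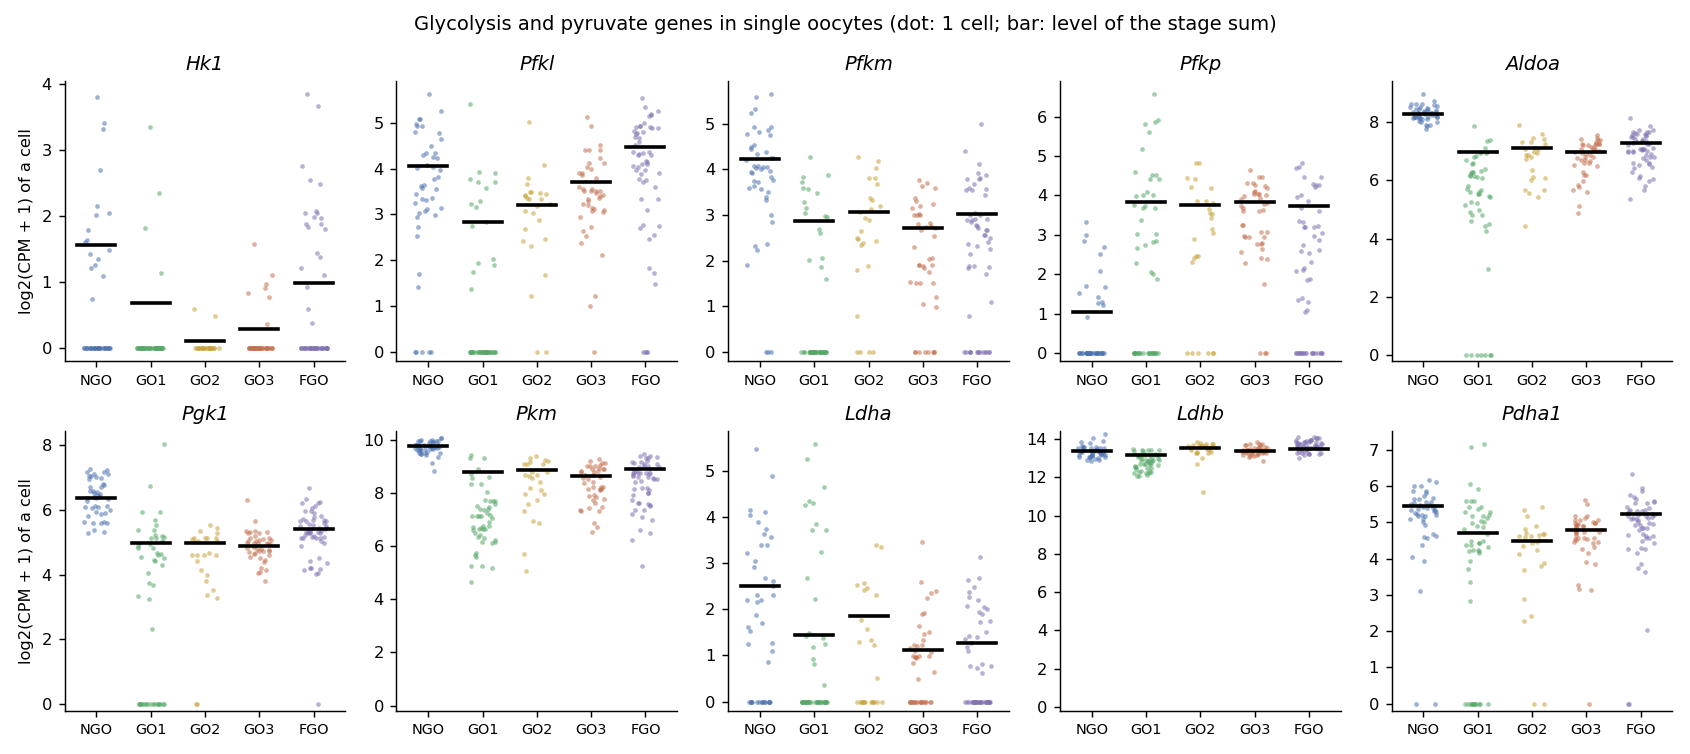
Level of each gene in each of the 223 cells as log2(CPM + 1) on the vertical axis, by stage on the horizontal axis, with 1 dot per cell and a black bar at the level of the stage sum. *Aldoa* and *Pkm* sit highest in NGO, *Pfkp* lowest in NGO, *Ldhb* near the same height in all 5 stages, and many cells lie at 0 for *Hk1* and *Ldha*; in GO1 the bar lies above most dots of *Pkm* and *Aldoa*, since deep cells carry the sum.

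Phosphofructokinase commits sugar to glycolysis, and its liver (*Pfkl*), muscle (*Pfkm*) and platelet (*Pfkp*) forms were the members whose relation to each other differed most between stages. *Pfkp* (chromosome 13, 6579014 to 6648023, minus strand) was at 1.07 CPM (0.706 to 1.56) in NGO, 13.3 CPM (11.96 to 14.8) in GO1, 12.5 CPM (11.2 to 13.9998) in GO2, 13.1 CPM (12.2 to 14.2) in GO3 and 12.3 CPM (11.4 to 13.1) in FGO. It was thus scarce in NGO and held a similar level in the sums of the 4 later stages. In GO1 it was 12.4-fold higher (8.39 to 19.1) than in NGO. Over cells its level ran from 0 to 8.96 CPM with a median of 0 in NGO and from 0 to 94.2 CPM with a median of 5.32 in GO1. It was at 0 in 32 NGO cells and in 21 GO1 cells, so the stages overlap, and 20 of 51 GO1 cells lay above every NGO cell. This count is inflated by shallow cells. In the median GO1 cell 1 UMI equalled 9.08 CPM, so 1 UMI was enough there to pass the highest NGO cell.

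*Pfkm* (chromosome 15, 97923020 to 97962878, plus strand) went the other way, at 17.7 CPM (16.1 to 19.4) in NGO, 6.28 CPM (5.37 to 7.30) in GO1, 7.37 CPM (6.34 to 8.51) in GO2, 5.60 CPM (4.96 to 6.30) in GO3 and 7.14 CPM (6.50 to 7.82) in FGO. It was 2.82-fold lower (2.36 to 3.39) in GO1 than in NGO and 2.48-fold lower (2.17 to 2.83) in FGO than in NGO. *Pfkl* (chromosome 10, 77449692 to 77472828, minus strand) was at 15.7 CPM (14.2 to 17.3) in NGO, 6.09 CPM (5.19 to 7.10) in GO1, 8.17 CPM (7.09 to 9.37) in GO2, 12.2 CPM (11.2 to 13.2) in GO3 and 21.3 CPM (20.2 to 22.4) in FGO. It was 2.58-fold lower (2.14 to 3.11) in GO1 than in NGO and higher again with each later stage, and the FGO level was 1.35-fold higher (1.21 to 1.52) than in NGO, within the 2-fold limit. The 3 forms together were within 25.7 to 40.7 CPM in the stage sums. Without the 10 deepest cells the GO1 sum of the 3 forms was 14.9 CPM against 34.8 CPM in NGO, and in cells of 200000 to 1000000 UMIs 14.4 against 34.2 CPM.

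Of the phosphofructokinase UMIs, *Pfkp* held 3.11% (2.06 to 4.49) in NGO, 51.8% (48.01 to 55.6) in GO1, 44.7% (40.9 to 48.4) in GO2, 42.5% (40.05 to 45.05) in GO3 and 30.1% (28.4 to 31.9) in FGO. *Pfkm* held 51.3% (47.9 to 54.7) in NGO and 17.5% (16.1 to 19.1) in FGO. *Pfkl* held 23.7% (20.6 to 27.1) in GO1 and 52.3% (50.4 to 54.3) in FGO. The leading form was *Pfkm* in NGO, *Pfkp* in GO1, GO2 and GO3, and *Pfkl* in FGO, although the intervals of *Pfkm* and *Pfkl* in NGO and of *Pfkp* and *Pfkl* in GO3 overlap. Depth moved with these values: *Pfkp* was at 17.5 CPM in the 10 deepest FGO cells and 7.02 CPM in the rest. In cells of 200000 to 1000000 UMIs alone it was at 1.15 CPM in NGO, 9.74 in GO1 and 3.72 in FGO, above NGO in both but under 10 CPM, and its share of the family in FGO was 13.6%.

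**Figure D3:**
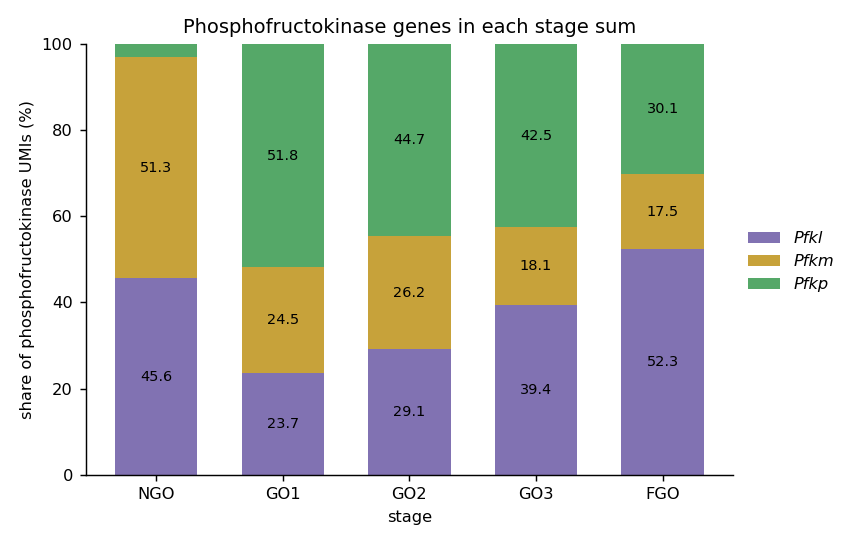
Share of the UMIs of *Pfkl*, *Pfkm* and *Pfkp* (vertical axis, percent, stacked to 100) in each of the 5 stage sums. The *Pfkp* segment goes from 3.11% in NGO to 51.8% in GO1, and the *Pfkl* segment is the tallest in FGO at 52.3%.

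Among 5 genes for enzymes that set the level of fructose 2,6-bisphosphate, the main activator of phosphofructokinase, 3 reached 10 CPM. In GO1 against NGO 2 of them were lower and 0 higher, where 25.7% of all genes were lower and 20.6% higher. *Pfkfb3*, which mostly makes this activator, was 20.2-fold lower (14.9 to 28.04) in GO1, at 33.3 CPM in NGO and 1.64 CPM in GO1. *Pfkfb1*, its relative of liver and muscle, was 2.55-fold lower (2.13 to 3.07). In FGO *Pfkfb3* stood at 5.78 CPM, 5.75-fold lower (5.08 to 6.51) than in NGO.

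*Aldoa* (chromosome 7, 133938748 to 133944265, minus strand), *Pgk1* (chromosome X, 103382439 to 103399038, plus strand) and *Pkm* (chromosome 9, 59504383 to 59527182, plus strand) act below phosphofructokinase and showed 1 pattern in the stage sums: highest in NGO, lower in GO1, and level from there to GO3. *Aldoa*, the aldolase that cleaves fructose 1,6-bisphosphate, was at 311 CPM (304 to 318) in NGO, 125.7 CPM (121.5 to 129.99) in GO1, 138.5 CPM (133.9 to 143.2) in GO2, 124.1 CPM (120.99 to 127.2) in GO3 and 156.2 CPM (153.2 to 159.3) in FGO. In GO1 it was 2.47-fold lower (2.38 to 2.58) than in NGO. Its cells ran from 217 to 498 CPM with a median of 315 in NGO and from 0 to 232 CPM with a median of 50.4 in GO1. The stages barely overlapped, with 45 of 46 NGO cells above every GO1 cell. Without the 10 deepest cells *Aldoa* was at 54.8 CPM in GO1 and 117.1 CPM in GO2, so GO1 was then the lowest stage. *Aldoa* held 97.9% to 99.5% of aldolase UMIs in the 5 stages, and *Aldoc* reached at most 5.04 CPM, in NGO.

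*Pgk1*, which makes ATP from 1,3-bisphosphoglycerate, was at 82.1 CPM (78.6 to 85.7) in NGO, 30.8 CPM (28.7 to 32.98) in GO1, 30.6 CPM (28.5 to 32.8) in GO2, 28.7 CPM (27.3 to 30.2) in GO3 and 41.1 CPM (39.5 to 42.7) in FGO. It was 2.67-fold lower (2.46 to 2.89) in GO1 than in NGO, and 43 of 51 GO1 cells lay below every NGO cell. Near-identical stretches (98% identity or more over 150 bases or more) at 3 other loci of the genome cover 95.7% of its longest transcript, so its counts are uncertain where the authors' alignment split reads among them. *Pgk2*, the testis form, had 0 UMIs in every stage, which allows up to 0.120 CPM in the shallowest stage sum.

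*Pkm*, pyruvate kinase of muscle and growing tissue, yields pyruvate and ATP and was the second most abundant member, at 886 CPM (874 to 897) in NGO, 442 CPM (434 to 449.9) in GO1, 473 CPM (464.9 to 482) in GO2, 400.2 CPM (395 to 406) in GO3 and 486 CPM (480.4 to 491) in FGO. In GO1 it was 2.004-fold lower (1.96 to 2.05) than in NGO, at the 2-fold limit itself. Its cells ran from 452 to 1087 CPM with a median of 873 in NGO and from 24.3 to 686 CPM with a median of 138.8 in GO1. The groups overlapped little, with 47 of 51 GO1 cells below every NGO cell. The GO1 sum stands above most GO1 cells because deep cells carry it: *Pkm* was at 515 CPM in the 10 deepest GO1 cells and 140.6 CPM in the rest. In cells of 200000 to 1000000 UMIs alone *Pkm* was at 883 CPM in NGO, 160.5 in GO1, 392 in GO2 and 369 in FGO, so the lowest stage was then GO1, whereas with DESeq2 or TMM scaling the GO1 to NGO difference fell short of 2-fold. *Pklr*, the liver and red cell form, had 1 UMI in FGO and 0 in the 4 other stages.

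Of 20 other glycolysis enzymes and isoenzymes, 7 reached 10 CPM. In GO1 against NGO 4 of these were lower and 0 higher, where 25.7% of all genes were lower and 20.6% higher. *Gapdh*, which oxidises glyceraldehyde 3-phosphate, was 7.03-fold lower (6.596 to 7.50), from 285 to 40.6 CPM. *Gpi1*, the isomerase before phosphofructokinase, was 2.82-fold lower (2.68 to 2.96), and *Pgam1*, the mutase after *Pgk1*, was 3.80-fold lower (3.34 to 4.32). *Gapdh* and *Gpi1* were also lower in FGO than in NGO, by 2.73-fold and 2.80-fold. *Gapdh* has near-identical stretches at 31 other loci and *Pgam1* at 3, so their counts are uncertain in the same way. *Eno1*, enolase, was listed at 0 in all 223 cells, and since near-identical stretches at 2 other loci cover 85.6% of its longest transcript, this 0 is uncertain in the same way. Its relative *Eno1b*, named here after its values were seen, was at 6.55 CPM in NGO, then 3.36 in GO1 and 3.40 in GO2, and 3.01 in GO3 and 3.81 in FGO.

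Lactate dehydrogenase transcripts were almost wholly of the B type. *Ldhb* (chromosome 6, 142438769 to 142456477, minus strand) was at 10836 CPM (10795 to 10876) in NGO, 9109 CPM (9073 to 9146) in GO1, 12002 CPM (11959 to 12045) in GO2, 10613 CPM (10585 to 10642) in GO3 and 11615 CPM (11588 to 11641) in FGO. It held 0.911% to 1.20% of all UMIs of a stage, second among all 23201 genes in NGO, GO1, GO2 and GO3 and first in FGO. Its cells ran from 7493 to 20002 CPM with a median of 10438 in NGO, from 4271 to 11480.1 CPM with a median of 7563 in GO1 and from 8334 to 17544 CPM with a median of 12582 in FGO. It was thus present in all 223 cells at a level that overlapped between stages, lower in GO1 than in NGO by 1.19-fold (1.18 to 1.20) and 1.32-fold higher (1.31 to 1.32) in GO2 than in GO1. Its coefficient of variation over cells was 14.1% in GO3 to 27.3% in GO1, against 15.2% to 87.3% for *Pkm*.

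*Ldha* (chromosome 7, 54096845 to 54110997, plus strand) was at 4.68 CPM (3.88 to 5.61) in NGO, 1.72 CPM (1.26 to 2.29) in GO1, 2.64 CPM (2.04 to 3.36) in GO2, 1.16 CPM (0.884 to 1.505) in GO3 and 1.40 CPM (1.13 to 1.72) in FGO. It was at 0 in 16 of 46 NGO, 31 of 51 GO1, 13 of 26 GO2, 18 of 44 GO3 and 30 of 56 FGO cells, and no cell held more than 11 UMIs of it. *Ldha* thus gave a few UMIs per cell at most. It had no stretch of 98% identity over 150 bases elsewhere in the genome.

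The share of *Ldha* in *Ldha* plus *Ldhb* UMIs was 0.0432% (0.0358 to 0.0517) in NGO, 0.0189% (0.0138 to 0.0252) in GO1, 0.0220% (0.0170 to 0.0280) in GO2, 0.0110% (0.00833 to 0.0142) in GO3 and 0.0120% (0.00969 to 0.0148) in FGO. Put the other way, there were 2314 *Ldhb* UMIs for each *Ldha* UMI in NGO (1932 to 2796) and 8299.5 in FGO (6752 to 10321). The balance was on the side of *Ldhb* in every stage and further so in the later stages. The share was 3.59-fold lower (2.70 to 4.77) in FGO than in NGO, with 90 *Ldha* UMIs behind the FGO value. It was 2.29-fold lower (1.62 to 3.29) in GO1 than in NGO. GO1 and GO2 did not differ beyond counting error, with a ratio of 1.17 (0.788 to 1.74), nor did GO3 and FGO, with a ratio of 1.10 (0.781 to 1.56).

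In single cells the share of *Ldha* had a median of 0.0238% in NGO, 0 in GO1 and FGO, 0.00203% in GO2 and 0.00774% in GO3. Its highest value was 0.755%, in a shallow GO1 cell of 42240 UMIs with *Ldha* at 47.3 CPM, so that value rests on very few *Ldha* UMIs. No cell of any stage came near an even balance. The order of the early stages depends on weighting: as a mean over cells the share was 0.0691% in GO1 and 0.0589% in NGO, so GO1 was no longer below NGO. *Ldha* was at 1.07 CPM in the 10 deepest GO1 cells and 4.39 CPM in the rest, which goes with that.

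**Figure D4:**
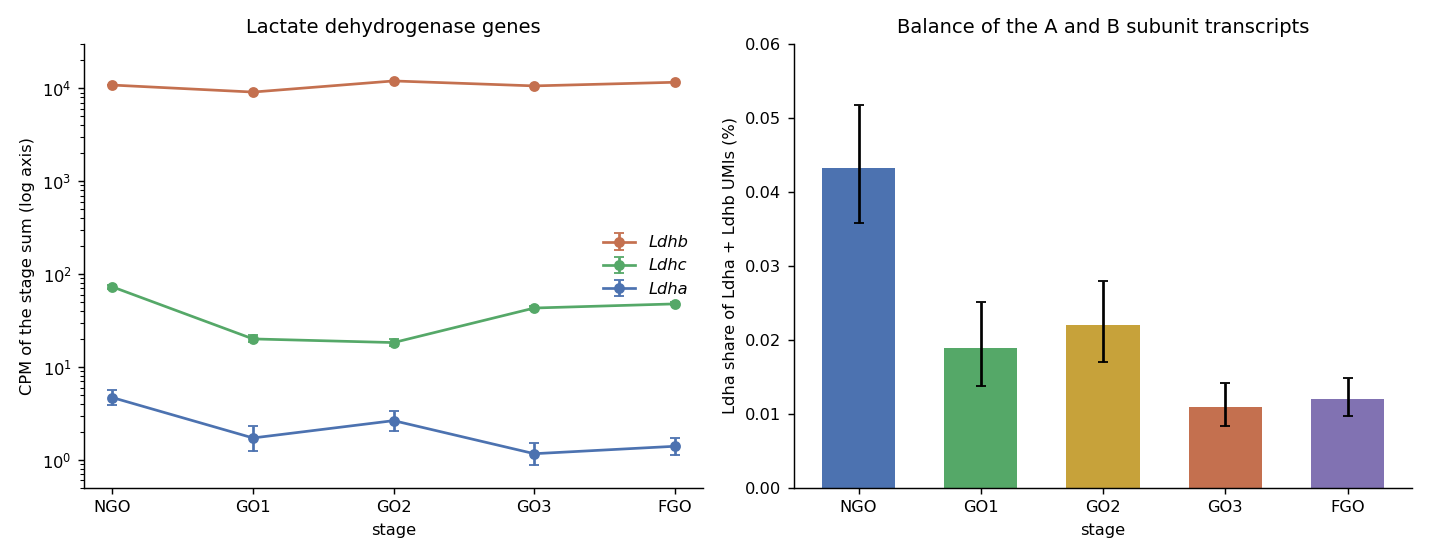
Left, CPM of *Ldhb*, *Ldhc* and *Ldha* in the 5 stage sums on a log axis, with 95% counting intervals as bars: *Ldhb* lies at 9109 CPM or more and *Ldha* under 5 CPM in every stage, with *Ldhc* between them. Right, *Ldha* share of *Ldha* plus *Ldhb* UMIs in percent with 95% intervals, 0.0432% in NGO and 0.0120% in FGO.

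*Ldhc* (chromosome 7, 54116573 to 54133512, plus strand), the C subunit best known from testis and the neighbour of *Ldha* on chromosome 7, was at 72.8 CPM (69.5 to 76.2) in NGO, 20.04 CPM (18.4 to 21.8) in GO1, 18.3 CPM (16.7 to 20.1) in GO2, 43.1 CPM (41.3 to 44.96) in GO3 and 47.7 CPM (46.1 to 49.5) in FGO. It was above *Ldha* in every stage, with 6.92 *Ldhc* UMIs for each *Ldha* UMI in GO2 and 37.02 in GO3. *Ldhc* was 3.63-fold lower (3.30 to 4.01) in GO1 than in NGO and 2.36-fold higher (2.13 to 2.61) in GO3 than in GO2, so it was lowest in GO1 and GO2. Even so it held at most 0.667% of the UMIs of the 3 genes, in NGO.

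The 250 bases before the starts of *Ldha*, *Ldhb* and *Pfkp* are shown because these genes set the lactate dehydrogenase balance and the phosphofructokinase mix. They are RefSeq promoter sequences of build GRCm38.p6, a later build than the mm9 positions above, printed 5′ to 3′ on the strand of the gene, and all 10 genes were matched by symbol, some with several starts. *Ldha* (chr7:46845554-46845803, plus strand, the first of its 2 starts), *Ldhb* (chr6:142507958-142508207, minus strand) and *Pfkp* (chr13:6648772-6649021, minus strand) read as follows. Each ACGTG is in capitals on either strand, so that CACGT marks a match on the other strand and CACGTG overlapping matches on both. ACGTG is a form of the core letters of the hypoxia response element, which are A or G and then CGTG.
Ldha: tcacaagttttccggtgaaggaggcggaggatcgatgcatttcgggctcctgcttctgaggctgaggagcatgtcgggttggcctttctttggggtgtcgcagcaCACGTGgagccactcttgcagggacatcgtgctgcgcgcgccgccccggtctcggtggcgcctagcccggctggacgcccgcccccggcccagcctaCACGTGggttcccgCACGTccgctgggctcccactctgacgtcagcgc
Ldhb: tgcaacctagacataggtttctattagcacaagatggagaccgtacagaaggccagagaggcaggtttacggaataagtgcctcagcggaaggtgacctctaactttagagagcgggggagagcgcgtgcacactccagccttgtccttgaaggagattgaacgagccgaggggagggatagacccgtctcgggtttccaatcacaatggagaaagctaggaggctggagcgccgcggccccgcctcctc
Pfkp: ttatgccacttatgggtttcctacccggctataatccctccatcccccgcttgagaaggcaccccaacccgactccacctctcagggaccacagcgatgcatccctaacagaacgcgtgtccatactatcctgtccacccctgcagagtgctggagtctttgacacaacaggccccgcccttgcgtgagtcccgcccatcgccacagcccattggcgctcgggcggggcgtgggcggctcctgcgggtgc

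The *Ldha* window holds ACGTG at 3 places, counting overlapping matches once, the window of the other *Ldha* start at 0, and the *Ldhb* and *Pfkp* windows at 0. Of all 32851 RefSeq mouse windows of 250 bases, 16.6% hold it at least once and 0.256% at 3 places or more. *Pgk1*, a classical gene of the hypoxia response, holds it at 2 places, and *Aldoa*, *Pkm* and *Pfkm* at 1 place before some of their starts. CG dinucleotides number 25 in the printed *Ldha* window, 9 in that of its other start, 14 in that of *Ldhb* and 16 in that of *Pfkp*, against a median of 6 over all windows. The other form of that core, GCGTG, was not counted, and it occurs in the printed *Ldhb* and *Pfkp* windows. These are matches of letters and were not set against any measurement of binding.

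Among 4519 genes that reached 50 CPM in any stage, those whose profile over the 5 stage sums lay nearest to *Ldhb* were *Trappc3* (0.0280), *Pias4* (0.0574) and *Mea1* (0.0596), where the value is the root mean square difference of centred log2(CPM + 1). All 3 are close to flat, as *Ldhb* is, but far less abundant: *Trappc3* ranged from 75.3 CPM in GO1 to 100.99 CPM in FGO. Among those nearest to *Ldha* were *Cops5* (0.177) and *Mfsd4a* (0.184), both highest in NGO. *Cops5* ran from 118.9 CPM in GO3 to 265.9 CPM in NGO. The 1 added before the log narrows the profile of *Ldha*, a gene of few CPM, more than those of genes over 50 CPM. The likeness to *Ldha* rests in part on that step. With 5 points a profile of this kind describes the stage sums only.

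*Pdha1* (chromosome X, 156560141 to 156576345, minus strand) encodes the catalytic alpha subunit of pyruvate dehydrogenase and was at 42.8 CPM (40.3 to 45.4) in NGO, 25.04 CPM (23.2 to 27.01) in GO1, 21.5 CPM (19.7 to 23.4) in GO2, 26.5 CPM (25.1 to 27.96) in GO3 and 36.2 CPM (34.8 to 37.7) in FGO. It was lowest in GO2 and differed by less than 2-fold at every step, 1.71-fold lower (1.55 to 1.88) in GO1 than in NGO and 1.37-fold higher (1.28 to 1.46) in FGO than in GO3. Its cells ran from 0 to 70.1 CPM with a median of 39.6 in NGO and from 0 to 79.005 CPM with a median of 32.7 in FGO, ranges that overlap almost wholly. *Pdha2*, the alpha subunit known from testis, was at 2.10 CPM in NGO, then 5.83 in GO1 and 3.92 in GO2, and 2.15 in GO3 and 4.04 in FGO, below *Pdha1* in every stage.

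Of 15 genes for pyruvate entry and the pyruvate dehydrogenase complex, 10 reached 10 CPM. In GO1 against NGO 3 of these were lower and 1 higher, where 25.7% of all genes were lower and 20.6% higher. *Pdhx*, which anchors the E3 subunit in the complex, was 3.36-fold higher (3.21 to 3.53) in GO1, at 86.5 CPM in NGO, then 291 in GO1 and 309 in GO2, and 317 in GO3 and 236 in FGO. The 3 lower genes were *Pdk1*, *Pdk3* and *Pcx*. *Pdk1* and *Pdk3*, kinases that switch the complex off, were 7.46-fold lower (6.06 to 9.28) and 3.16-fold lower (3.004 to 3.33) in GO1. *Pcx*, pyruvate carboxylase, was 5.30-fold lower (4.46 to 6.34). The same 3 genes were lower and *Pdhx* higher in FGO than in NGO, where 16% of all genes were lower and 11.3% higher. *Pdk1* was 4.82-fold lower (4.25 to 5.47), *Pcx* 3.01-fold lower (2.71 to 3.34), *Pdk3* 2.05-fold lower (1.98 to 2.12) and *Pdhx* 2.72-fold higher (2.604 to 2.85).

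**Figure D5:**
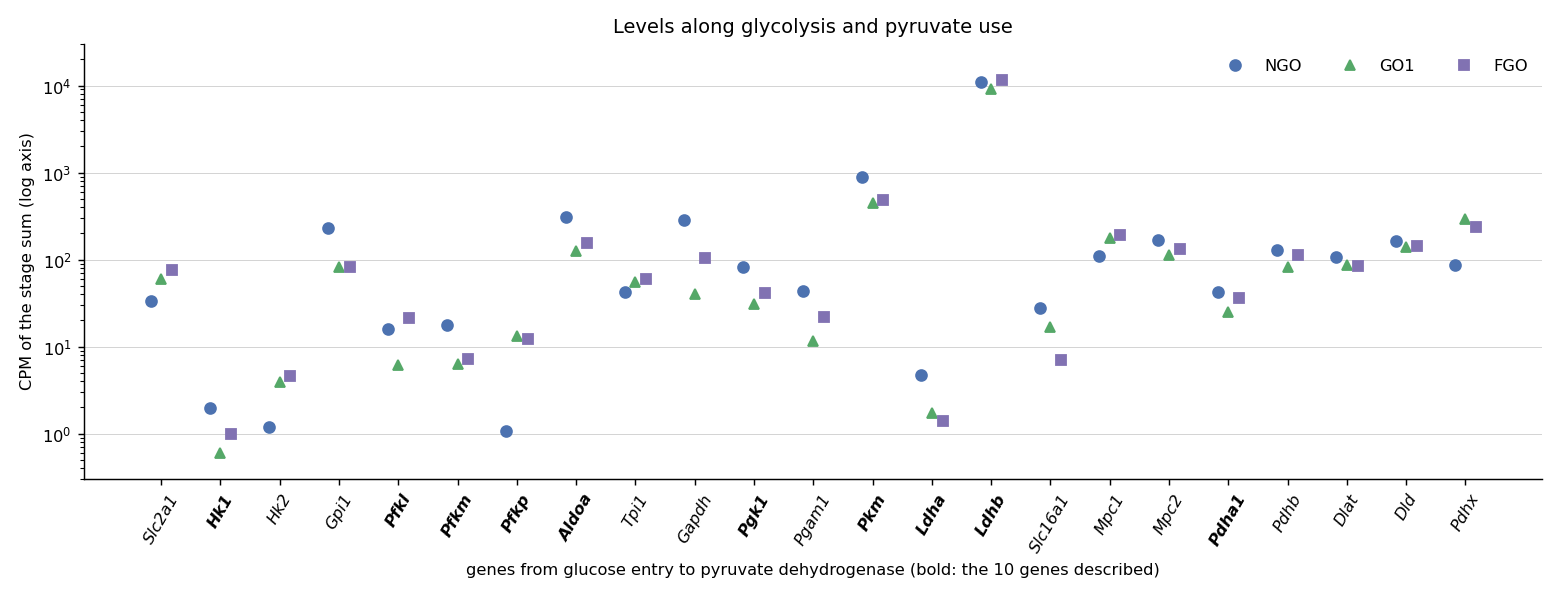
CPM (log axis) in the NGO, GO1 and FGO stage sums of 23 genes ordered from glucose entry to pyruvate dehydrogenase, with the 10 genes described here in bold and *Eno1* left out because it was listed at 0. *Ldhb* stands alone at the top, and *Hk1*, *Hk2* and *Ldha* lie under 5 CPM. The genes shown that were called lower in GO1 than in NGO are *Gpi1*, *Pfkl*, *Pfkm*, *Aldoa*, *Gapdh*, *Pgk1*, *Pgam1* and *Pkm*. The NGO circle lies above the GO1 triangle for these and for some genes not called, among them *Hk1*, *Ldha*, *Ldhb* and *Pdha1*.

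Around the pathway, 4 of 10 carrier genes reached 10 CPM, and 1 was lower in GO1 than in NGO and 0 higher. The count of lower carriers was 3 after thinning, with 26 cells per stage, without the 10 deepest cells and in cells of 200000 to 1000000 UMIs. It stayed at 1 as a mean over cells and with DESeq2 or TMM scaling. Over all genes 2955 of 8499 were lower after thinning, against 2193 of 8527 in the sums. The 1 carrier lower in the sums was *Bsg*, the chaperone of monocarboxylate transporters, which was 4.44-fold lower (4.27 to 4.62). From NGO to FGO 3 of the 4 were lower and 1 higher, where 16% of all genes were lower and 11.3% higher. *Slc2a1*, the glucose transporter GLUT1, was 2.30-fold higher (2.14 to 2.48) in FGO, at 33.3 and 76.7 CPM, while *Slc16a1*, the lactate and pyruvate transporter MCT1, was 3.98-fold lower (3.53 to 4.49), at 28.1 and 7.06 CPM. *Bsg* was 2.41-fold lower (2.36 to 2.47) and *Emb*, a related chaperone, 2.89-fold lower (2.51 to 3.32). The glucose carrier was thus higher and a monocarboxylate carrier and its chaperones lower, although *Slc2a1* was called only in the sums and their DESeq2 and TMM scalings, not as a mean over cells, after thinning, with 26 cells per stage, without the 10 deepest cells or in cells of 200000 to 1000000 UMIs.

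All 17 genes of the tricarboxylic acid cycle reached 10 CPM. In GO1 against NGO 8 were lower and 0 higher, where 25.7% of all genes were lower and 20.6% higher. The median log2 ratio of the 17 was -0.99, against -0.15 over all genes at that level. With DESeq2 or TMM scaling 6 were lower. As a mean over cells, after thinning, with 26 cells per stage, without the 10 deepest cells and in cells of 200000 to 1000000 UMIs, 11 to 13 were lower. More of all genes were lower in these settings too. The counts were 3189 of 8488 without the 10 deepest cells and 2954 of 8539 as a mean over cells, against 2193 of 8527 in the sums. The 8 included *Idh3g* (3.46-fold), *Idh3b* (3.25-fold), *Sdhb* (2.76-fold), *Sdha* (2.29-fold), *Ogdh* (2.27-fold), *Suclg2* (2.12-fold) and *Fh1* (2.02-fold). From NGO to FGO 6 were lower and 0 higher, where 16% of all genes were lower and 11.3% higher. Among the 6 were *Idh3g* (3.31-fold), *Sdha* (2.57-fold), *Idh3b* (2.39-fold), *Suclg2* (2.33-fold) and *Dlst* (2.01-fold). Of 7 genes of the pentose phosphate pathway, the other route of glucose 6-phosphate, 5 were lower in GO1 and 1 higher. The shares of all genes were 25.7% lower and 20.6% higher. The count of lower genes of this pathway was 4 with DESeq2 or TMM scaling and 6 without the 10 deepest cells. *Pgls* was 10.8-fold lower (9.71 to 11.98), and *Pgd* (5.18-fold), *Tkt* (3.88-fold), *Taldo1* (2.58-fold) and *G6pdx* (2.09-fold) were lower as well, while *Rpia* was 10.5-fold higher (7.12 to 16.1), at 1.11 and 11.7 CPM. From NGO to FGO 4 of 6 were lower, where 16% of all genes were lower. The 4 were *Pgls* (4.09-fold), *Tkt* (2.70-fold), *Pgd* (2.51-fold) and *G6pdx* (2.09-fold). Along with most members, 8 of 17 tricarboxylic acid cycle genes and 5 of 7 pentose phosphate genes were thus lower in the GO1 sum. The lists of pyruvate entry (3 of 10 lower) and carriers (1 of 4 lower) stood near the 25.7% of all genes. The summed level of the oocyte markers was lower in GO1 too, the granulosa markers were higher and the stroma and theca markers lower, by the values given above. Of the blood and vessel markers *Pecam1*, which alone had UMIs in NGO and GO1, was higher. The part of these markers in the differences between stages was not tested.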

How the data were processed

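Transcripts of single oocytes were measured in 223 cells of 5 stages. Cell barcodes were used by the authors to assign reads to cells. Trimmed reads were mapped to mouse transcripts (build mm9) with Tophat, and copies sharing a UMI were collapsed. The deposited values are raw UMI counts per gene for the cells that passed limits on detected genes, transcripts and spike-ins. The 4 libraries reuse cell barcodes, with 88 barcodes in 3 libraries and 8 in all 4, and no column name links a cell to a library. The members and gene lists were chosen with earlier results of these data known. Here, counts were summed by stage. Genes named are the 10 members, their isoenzymes, and of each list up to 8 genes past the size rule with the largest log2 ratio between NGO and GO1 or FGO. Ratio intervals came from the binomial split of both counts, shares carry Clopper-Pearson intervals, and PCR before tagging, spread between oocytes and spread between libraries enter neither. The rule was tested only on simulated stage sums with counting error, so that test does not cover spread between cells or libraries.

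Alternatives were DESeq2 1.42.0 size factors and edgeR 4.0.16 TMM factors, used for scaling only, means over cells, thinning to 20000 UMIs, 26 cells per stage, sums without the 10 deepest cells, other limits and a band of cell depth. Transcript copies were sought with blastn 2.17.0 in NCBIM37. No doublet caller was run on these hand-picked cells. Python 3.11.15, scipy 1.17.1 and R 4.3.3 were used. The DNA methylation and accessibility data were not analysed here, and a few genes that the naming rule covers are not reported here.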

Additional observations from a re-analysis of the deposited data

How the results depend on the processing

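The counts of members called and the *Ldha* share are given first, where a count moved by more than 1.5 times or a share beyond its counting interval, and the cause was not tested beyond the construction of the setting. The setting of cells with 200000 to 1000000 UMIs was chosen after seeing the data. From NGO to GO1 the 5 lower members became 3 at a limit of 50 CPM, and the 1 higher member 0 at that limit and 0 in cells of 200000 to 1000000 UMIs. From GO1 to GO2, with none called as reported, 1 was higher as a mean over cells, after thinning each cell to 20000 UMIs and in cells of 200000 to 1000000 UMIs, and 2 without the 10 deepest cells of each stage, *Pkm* each time. In the same step 1 was lower after thinning (*Pfkp*) and 1 with no filter on low values (*Hk1*). From GO2 to GO3, 1 was higher after thinning and 1 with no filter, and 1 was lower with no filter. From GO3 to FGO, 1 was higher at a limit of 1.5-fold (*Pfkl*) and 1 with no filter, and 1 was lower in cells of 200000 to 1000000 UMIs (*Pfkp*). From NGO to FGO the 1 higher member (*Pfkp*) became 0 as a mean over cells, after thinning, with 26 cells per stage, without the 10 deepest cells, in cells of 200000 to 1000000 UMIs and at 50 CPM. The count of 1 lower member (*Pfkm*) became 4 as a mean over cells, without the 10 deepest cells and at 1.5-fold, 3 after thinning (*Aldoa*, *Pgk1* and *Pkm*, without *Pfkm*), with 26 cells per stage and in cells of 200000 to 1000000 UMIs, 2 with no filter and 0 at 50 CPM.

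The *Ldha* share of *Ldha* plus *Ldhb* moved in NGO to 0.0589% as a mean over cells, 0.0602% after thinning and 0.0530% without the 10 deepest cells, and in GO1 to 0.0691%, 0.0913% and 0.0530%, with 0.0265% in cells of 200000 to 1000000 UMIs. It moved in GO2 to 0.0157% as a mean over cells and 0.0168% after thinning, in GO3 to 0% after thinning, and in FGO to 0.00932% as a mean over cells and 0% after thinning. The thinned shares rest on 7 *Ldha* UMIs or fewer in a stage. GO2, GO3 and FGO stayed below NGO in each of these settings, while GO1 lay above NGO as a mean over cells and after thinning and level with it without the 10 deepest cells.

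No called ratio of a member changed direction. Of the ratios under other settings, 67 of 68 kept their sign from NGO to GO1, 56 of 67 from GO1 to GO2, 57 of 66 from GO2 to GO3, 66 of 69 from GO3 to FGO and 65 of 67 from NGO to FGO, but 42 of those from NGO to GO1 lay outside the counting interval of the reported ratio. The log2 ratio of *Pkm* from NGO to GO1 ran from -2.64 to -0.84. The *Pfkp* share of phosphofructokinase UMIs in GO1 reached 69.2% without the 10 deepest cells and 78.9% after thinning, and that of *Pfkl* fell as low as 11.2% in cells of 200000 to 1000000 UMIs. DESeq2 and TMM scaling moved the log2 ratio of GO1 over NGO of all genes by 0.10 and 0.16, and *Pkm* then missed the 2-fold limit. No paired analysis was possible because each stage was 1 pooled sample.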

Other observations

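Within a stage, the level of several of these genes in a cell moved with the number of UMIs in the cell. As a description, with cells that share libraries and depth on both axes, Spearman's rho of CPM and cell total over the 56 FGO cells was 0.76 for *Pfkp* and 0.64 for *Pkm*, and -0.43 for *Ldhb*. Over the 26 GO2 cells it was 0.76 for *Pkm*, 0.63 for *Pgk1* and 0.21 for *Ldhb*. Over the 51 GO1 cells it was 0.57 for *Ldhb*, the opposite sign to FGO, and 0.51 for *Pfkm*, 0.52 for *Aldoa*, 0.53 for *Pgk1* and 0.47 for *Pkm*. Over the 46 NGO cells it was -0.20 for *Aldoa* and 0.38 for *Pkm*. In FGO *Ldhb* was at 9932 CPM in the 10 deepest cells and 13280.3 CPM in the rest, while *Pkm* was at 585 and 388 CPM. The part of depth in the differences between stages was not tested.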
